A study of Mus musculus with 4 samples.

Results

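The miRNAs mmu-miR-142-3p, mmu-miR-142-5p, mmu-miR-223, mmu-miR-146a, mmu-miR-155 and mmu-miR-150, known from blood leukocytes and from Kupffer cells, the resident macrophages of the liver, were followed over genotype and time of day. They were chosen by name, with passenger (star) strands left out, and are 6 of the 611 mouse miRNAs on the array. Earlier results of these data were known at that choice, so their places among all miRNAs are descriptions. The prefix mmu marks mouse and is left out of other names. Liver RNA was measured on 4 Agilent miRNA arrays read in 1 colour, 1 for each of 4 conditions, made up of 2 genotypes, WT and Clock mutant, each at ZT2 and at ZT14. In a cycle with 12 h of light, ZT2 falls 2 h and ZT14 falls 14 h after the light came on. The mutant carried Clock△19, an allele of the core clock gene Clock whose product lacks a stretch needed to activate transcription, and the WT mice were its controls. The labels do not give the strain background or say whether the mutants were homozygous. The mice were male and 6 to 8 weeks old, and each was housed alone for 2 weeks before the liver was taken. Each array held a pool of the RNA of 3 mice, which leaves a single value for a condition and no spread between mice. A ratio of 2 arrays therefore has no test, and the number of arrays limits the precision.

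A miRNA guides the Argonaute complex to messenger RNAs, mainly by pairing through its seed, and thereby lowers their translation and stability. miR-142, made in blood cells of all lineages and hardly elsewhere, gives stable products from both arms of its hairpin. miR-223 is a miRNA of neutrophils, monocytes and macrophages, miR-150 of mature lymphocytes, and miR-155 and miR-146a are induced in activated immune cells, where miR-146a restrains Toll-like receptor signalling through Traf6 and Irak1. In whole liver, hepatocytes supply most of the RNA, so these miRNAs report a minority of the cells, both resident and carried in the blood.

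The mature sequences are shown because the seed decides which messenger RNAs a miRNA can pair with, and because the arms of miR-142 and the pair miR-146a and miR-146b have to be told apart by the probes. Of the 6 miRNAs, 5 matched a mature sequence in the RefSeq annotation of mouse build GRCm38.p6, and the miRNA without a match was miR-150. miR-146b, a relative of miR-146a that the array also carried, is printed for comparison. Capitals mark the seed, bases 2 to 8 from the 5′ end.
mmu-miR-142-3p: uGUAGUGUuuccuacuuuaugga
mmu-miR-142-5p: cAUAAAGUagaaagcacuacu
mmu-miR-223: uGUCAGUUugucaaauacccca
mmu-miR-146a: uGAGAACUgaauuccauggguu
mmu-miR-146b: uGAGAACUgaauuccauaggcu
mmu-miR-155: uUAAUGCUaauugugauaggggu

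miR-142-3p (chr11:87756903-87756925) and miR-142-5p (chr11:87756867-87756887) are arms of 1 hairpin on the plus strand, and a second annotated miRNA, Mir142b, lies over them on the opposite strand. miR-223 lies at chrX:96242884-96242905 on the plus strand, inside the long noncoding RNA gene F630028O10Rik. miR-155 lies at chr16:84714143-84714165 on the plus strand, inside its host transcript Mir155hg, and miR-146a at chr11:43374435-43374456 on the minus strand. The seeds of miR-142-3p, miR-142-5p, miR-223 and miR-155 were each held by 1 of the 1679 mature mouse miRNAs in the RefSeq table. miR-146a and miR-146b share a seed and differ at 2 of 22 positions, none of them in the seed.

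The array detected 4 of the 6 on at least 1 array and 3 of the 6 on all 4 arrays, by the detection call of the scanner software. Over the 24 combinations of miRNA and array, 13 were detected. Each of the 6 had 2 probes with 10 spots each, and no spot was saturated. Signals below are background-subtracted intensities in scanner units before scaling, or scaled signals, which are those intensities divided by an array's own 75th percentile. It was taken over the 123 mouse miRNAs that all 4 arrays detected. The error given is the SD of repeated spots of a probe, which is technical. The percentile was 537 for WT and 503 for the mutant at ZT2. At ZT14 it was 339.9 for WT, the dimmest array, and 536 for the mutant. In these bulk samples fewer cells of a type and less miRNA per cell cannot be told apart. All 4 arrays were on 1 slide and read in 1 scan.

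Both arms of miR-142 stood out in WT at ZT2. For mmu-miR-142-3p, the signal before scaling was 419 ± 23.6 (spot SD) in WT at ZT2, 249 ± 9.38 in the mutant at ZT2, 125 ± 4.98 in WT at ZT14 and 224 ± 8.76 in the mutant at ZT14. The scaled signals were 0.780, 0.496, 0.368 and 0.419 in that order. WT at ZT2 stood above the other 3 arrays, which spanned 0.368 to 0.496, and the authors' log2 table was the only alternative that put another array on top. The mutant over WT ratio of miR-142-3p was -0.66 on the log2 scale at ZT2 (spot SD 0.10), 1.57-fold lower, and 0.19 at ZT14 (spot SD 0.08). Its 2 probes gave -0.64 and -0.68 at ZT2 and 0.17 and 0.21 at ZT14. The ratio of ZT14 to ZT2 was -1.09 in WT (spot SD 0.10), 2.12-fold lower at ZT14, and -0.24 in the mutant (spot SD 0.08). Both probes showed the fall in WT alike, at -1.08 and -1.09.

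For mmu-miR-142-5p, the signal before scaling was 38.0 ± 3.64 in WT at ZT2, 15.4 ± 2.66 in the mutant at ZT2, 6.47 ± 3.13 in WT at ZT14 and 12.0 ± 3.69 in the mutant at ZT14. Only the WT array at ZT2 detected it, with all 20 of its spots well above background there and 0 of 20 on each of the other 3 arrays. Negative control spots averaged 6.60, 5.65, 9.53 and 9.27 units on the 4 arrays in the same order, so the WT signal at ZT14 lay below them. Ratios against the 3 arrays that did not detect it are nominal bounds, with the dim side set to the higher of its own signal and the lowest detected signal of that array. That lowest signal was 2.42 units for the mutant at ZT2 and 3.02 for WT at ZT14, so its own signal was used on both. These bounds are thus ratios to an undetected signal, and spot noise could take them lower. On that basis the bound for miR-142-5p was 3.72-fold lower in WT at ZT14 than in WT at ZT2. It was 2.53-fold with the floor raised to the mean of the negative controls. The bound fell to 1.67-fold with detection taken from spots well above background, and normexp and the authors' table gave no bound above 1. The mutant at ZT2 was lower than WT by a bound of log2 -1.21, which was -0.91 when the 75th percentile was taken over all mouse miRNAs, -0.83 after quantile normalization, -0.26 with normexp background correction and -0.72 with detection taken from spots well above background, each under 2-fold. At ZT14 neither genotype detected it, so no fold is given. Of the 195 miRNAs detected on any array, 29 (14.9%) had the same pattern as miR-142-5p, a detection call in WT at ZT2 and on no other array.

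**Figure D1:**
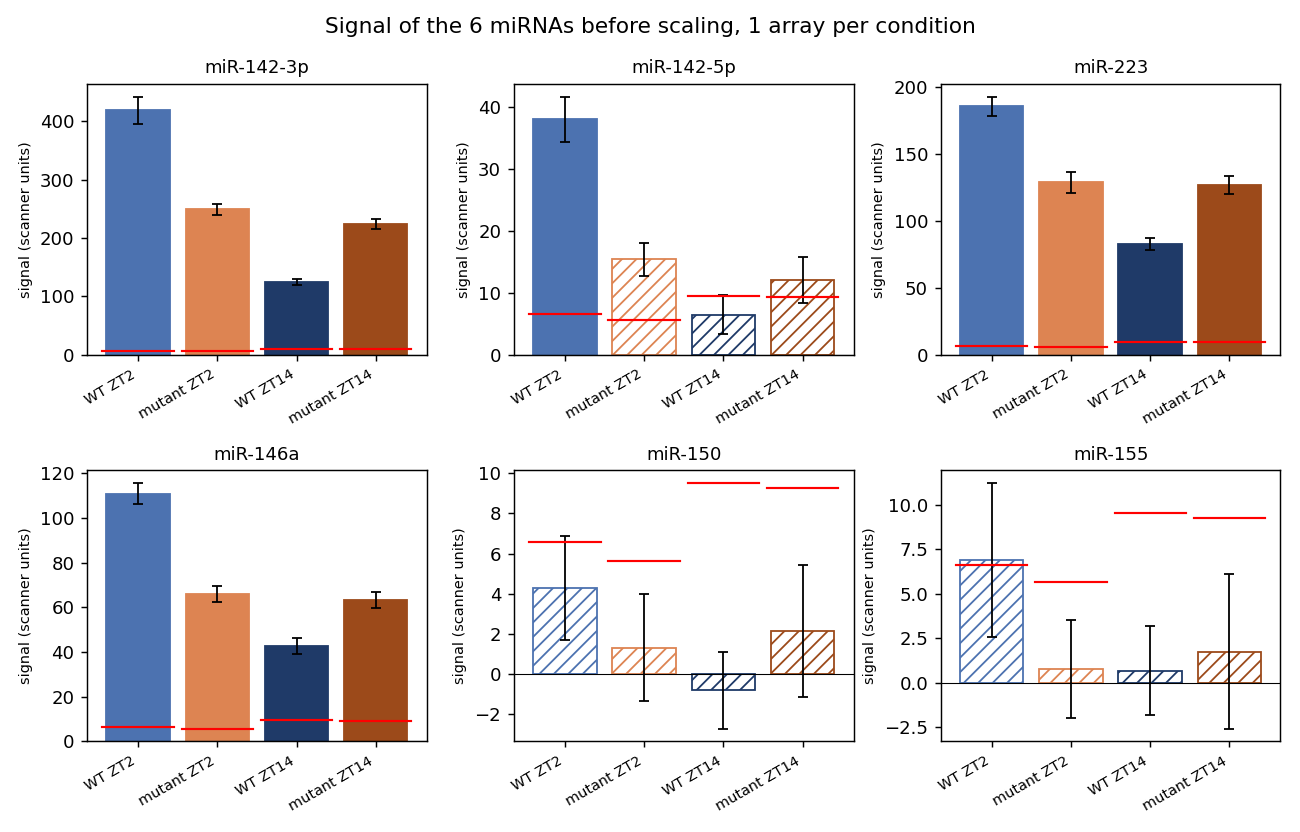
Signal before scaling (scanner units, linear axis from each panel's own range) of the 6 miRNAs on the 4 arrays, 1 bar per array. Filled bars were called detected and hatched bars were not, error bars are the SD of repeated spots, and red lines are that array's negative control mean. miR-142-3p, miR-223 and miR-146a were filled on all 4 arrays and tallest on WT at ZT2, miR-142-5p was filled on WT at ZT2 only, and miR-150 and miR-155 were hatched throughout. The order of the bars before scaling also holds the differences in brightness between whole arrays.

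The myeloid miRNA mmu-miR-223 had signals of 186 ± 7.13 in WT at ZT2, 129 ± 7.69 in the mutant at ZT2, 82.6 ± 4.50 in WT at ZT14 and 127 ± 6.99 in the mutant at ZT14. Scaled, they were 0.346, 0.257, 0.243 and 0.238. WT at ZT2 was again the high array, and the other 3 differed from each other by about the spread of the spots. The mutant over WT ratio of miR-223 was -0.43 at ZT2 (spot SD 0.10), 1.35-fold lower, and -0.03 at ZT14 (spot SD 0.11), within the spread of the spots. From ZT2 to ZT14 it changed by -0.51 in WT (spot SD 0.10) and by -0.11 in the mutant (spot SD 0.12). The 2 probes gave -0.44 and -0.39 at ZT2 and -0.03 each at ZT14.

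Of the miRNAs induced in activated immune cells, miR-146a was detected on all 4 arrays and miR-155 on none. The mmu-miR-146a signals were 111 ± 4.58 in WT at ZT2, 65.8 ± 3.59 in the mutant at ZT2, 42.7 ± 3.43 in WT at ZT14 and 63.3 ± 3.69 in the mutant at ZT14. Scaled, they were 0.206, 0.131, 0.126 and 0.118, with WT at ZT2 high and the other 3 close together. The mutant over WT ratio was -0.66 at ZT2 (spot SD 0.10), 1.58-fold lower, and -0.09 at ZT14 (spot SD 0.14), within the spread of the spots. From ZT2 to ZT14 miR-146a changed by -0.71 in WT (spot SD 0.13) and by -0.14 in the mutant (spot SD 0.12). The dimmer of its 2 probes was well above background on the WT array at ZT2 only, and it gave -0.68 at ZT2, against -0.65 for the brighter probe. At ZT14 the dimmer probe gave 0.27 and the brighter one -0.15, opposite in sign. miR-146b, with the same seed, was not detected on any array, at signals between -2.04 and 1.42 units.

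mmu-miR-155 had signals of 6.89 ± 4.34 in WT at ZT2, 0.787 ± 2.73 in the mutant at ZT2, 0.682 ± 2.51 in WT at ZT14 and 1.75 ± 4.34 in the mutant at ZT14. The lymphocyte miRNA mmu-miR-150 had signals of 4.29 ± 2.57, 1.32 ± 2.67, -0.808 ± 1.93 and 2.15 ± 3.29 on the same arrays. All of these but that of miR-155 in WT at ZT2 lay under the mean of the negative controls, and that one exceeded it by less than the SD of its own spots. Whether either miRNA differed between conditions was not detectable at this signal. The passenger strand miR-150*, the only star strand of the 6 that the array carried, was not detected either, at signals from -7.62 to -5.84 units. The label of the group thus rests, in these livers, on the 2 arms of miR-142, miR-223 and miR-146a.

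Set against all miRNAs, the members measured on both arrays lay toward the low end at ZT2. At ZT14 miR-223 and miR-146a lay in the middle and miR-142-3p toward the high end. At ZT2 the 3 measured on both arrays were all below 0, where 60.0% of the 160 miRNAs measured on both arrays were, and their median was -0.66 against -0.07 over the 160, whose SD across miRNAs was 0.36. From the lowest ratio up, miR-146a ranked 12, miR-142-3p 13 and miR-223 25 of 160. With a threshold of 2-fold and bounds included, 1 of the 4 detected members, miR-142-5p, was lower in the mutant at ZT2, where 8.25% of 194 miRNAs were. As only WT at ZT2 detected miR-142-5p, its bound could only come out lower, so the count adds no support. At ZT14 0 of 3 differed by 2-fold, where 13.4% of 157 miRNAs did, all of them lower. Of the 3 ratios there, 2 were below 0, where 56.1% of the 123 were. They had a median of -0.03, equal to that of all miRNAs measured on both arrays, and miR-142-3p ranked 103, miR-223 64 and miR-146a 53 of 123 from the lowest.

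Between time points the members were lower at ZT14 in WT, 3 of 3 measured, where 72.3% of the 137 miRNAs measured on both WT arrays were below 0. Their median was -0.71 against -0.12 over the 137. miR-142-3p had the third lowest ratio of the 137, at rank 3, with miR-146a at 9 and miR-223 at 18. With bounds included, at least 2-fold lower were 2 of the 4 detected members, both arms of miR-142, where 6.70% of 194 miRNAs were. Of these arms only miR-142-3p was measured on both WT arrays. The other arm was detected in WT at ZT2 only, so its bound could only come out lower and adds no support to the count. The fall of miR-142-3p was under 2-fold in 4 alternatives, at -0.79 with the percentile over all mouse miRNAs, -0.86 with the median, -0.87 with quantile normalization and -0.77 with normexp, and relative to the median miRNA it lay between -0.99 and -0.81 in all 9. In the mutant 0 of 3 passed 2-fold, where 13.5% of 163 miRNAs were at least 2-fold lower, and the members' 3 ratios were below 0, as were 79.3% of the 140 miRNAs measured on both arrays. These signs turned with the scaling, and with the percentile over all mouse miRNAs the 3 ratios were above 0, at 0.25 for miR-142-3p, 0.39 for miR-223 and 0.35 for miR-146a. Leaving aside the authors' table, miR-223 and miR-146a were above 0 in 4 of 8 alternatives each. The median of the 3 was -0.14 against -0.16 over the 140. Relative to the median of the 123 the mutant ratios lay between -0.12 and -0.07 for miR-142-3p, between 0.03 and 0.07 for miR-223 and between 0.01 and 0.16 for miR-146a. These 4 comparisons share arrays in pairs, so the low ratios at ZT2 and in WT both rest on the WT array at ZT2.

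**Figure D2:**
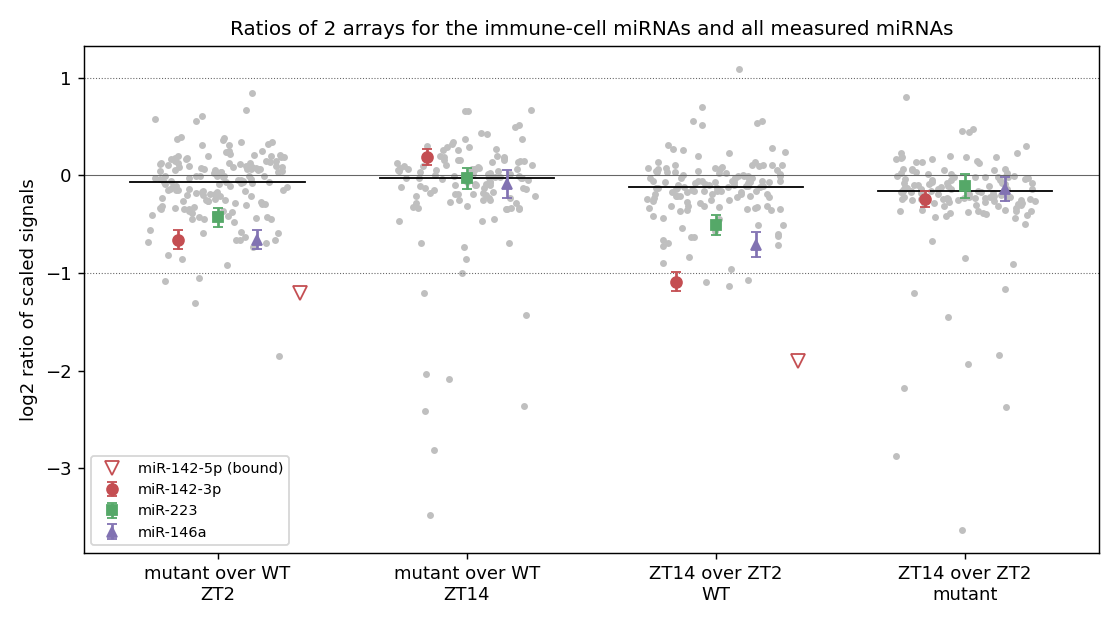
Log2 ratio of scaled signals (vertical axis) for each of the 4 comparisons of 2 arrays. Gray points are all miRNAs detected on both arrays, black bars their median, coloured points miR-142-3p, miR-223 and miR-146a with the spot SD, open triangles the bound for miR-142-5p, and dotted lines 2-fold. With this scaling the coloured points sit below the median for mutant over WT at ZT2 and for ZT14 over ZT2 in WT, and near it in the other 2 comparisons, except that miR-142-3p is at 0.19 for mutant over WT at ZT14.

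The scaling moves the ratio of every miRNA, so the members were also set against the median of those 123 miRNAs under 9 other ways of processing. Alternatives that only divide an array by another number (no scaling, the percentile over all mouse miRNAs, the median and the spike-ins) leave such a relative ratio as it is by construction, so its range comes from the others. The median itself ran from -0.18 to 0.80 at ZT2 and from -0.17 to 0.81 at ZT14. The mutant over WT ratio at ZT2, relative to that median, was -0.65 for miR-142-3p and lay between -0.70 and -0.55 in the 9 alternatives. For miR-146a it was -0.65, between -0.70 and -0.36, and for miR-223 -0.42, between -0.52 and -0.31. Taken as they stand, the 3 ratios at ZT2 were above 0 in 1 of the 9, the log2 table deposited by the authors, at 0.15, 0.38 and 0.15 for miR-142-3p, miR-223 and miR-146a, where the median miRNA was at 0.80. At ZT14 miR-142-3p was 0.22 above the median and between 0.17 and 0.22 above it in the alternatives. miR-223 stayed within 0.06 of the median, and miR-146a ran from -0.12 to 0.18, with a sign that turned with the processing.

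**Figure D3:**
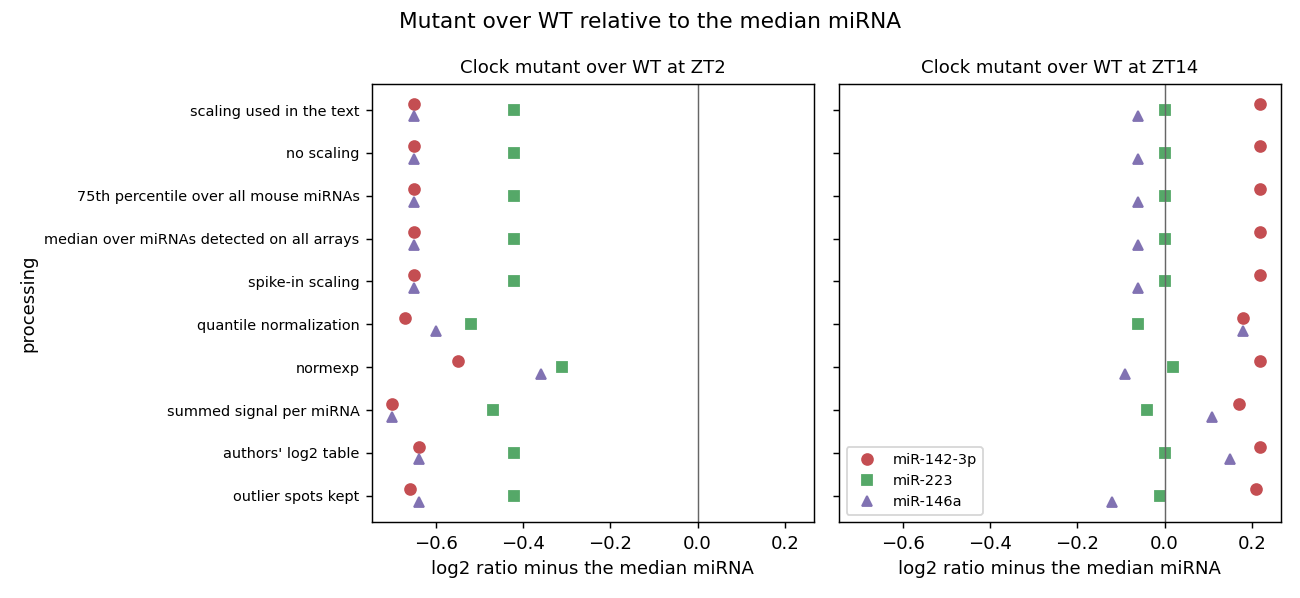
Mutant over WT log2 ratio minus the median of the 123 miRNAs (horizontal axis, the same range in both panels) under 10 ways of processing, at ZT2 on the left and ZT14 on the right. At ZT2 every point lies left of 0, between -0.70 and -0.31. At ZT14 miR-142-3p lies right of 0 in every row and miR-223 and miR-146a lie on either side of it.

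In the order of arrays, WT at ZT2 was highest for miR-142-3p, miR-223 and miR-146a, where 39.8% of the 123 miRNAs were highest on that array. It remained the highest array in 8 of 9 alternatives for miR-142-3p and in 7 of 9 for miR-223 and miR-146a, and the mutant at ZT14 was highest in the authors' log2 table, whose arrays are shifted by unequal amounts, for the 3 and with the percentile over all mouse miRNAs for miR-223 and miR-146a. Of the 123 miRNAs, 73 were highest on WT at ZT2 with no scaling, 72 with summed signals and 66 with the spike-ins. In those alternatives most miRNAs thus shared the members' highest array. The number was 48 with outlier spots kept, 35 with quantile normalization and 23 with normexp. It was 20 with the median, 4 with the percentile over all mouse miRNAs and 0 in the authors' table. The neighbours in the order below WT at ZT2, mutant at ZT2 and both arrays at ZT14, exchanged places between alternatives for all 3. The difference between the mutant over WT ratios at ZT14 and at ZT2 was 0.84 for miR-142-3p, 0.57 for miR-146a and 0.40 for miR-223, with spot SDs of 0.13, 0.17 and 0.15. miR-142-3p had opposite signs at the 2 time points, as did 36.6% of the 123 miRNAs. The differences ranked 5, 9 and 11 of 123 from the highest, where the median was -0.06 and the SD across miRNAs 0.62. With 1 array per condition this interaction has no residual degree of freedom and was not tested.

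Over all 4 arrays, limma with genotype and time point as additive terms called 0 of the 3 members for either term, where 0% of the 123 miRNAs had an adjusted p under 0.05. At an unadjusted p under 0.05, limma counted 10 of the 123 (8.13%) for genotype and 12 (9.76%) for time point, none of them a member. The genotype difference of miR-146a was -0.37 ± 0.19 (SE; limma, Benjamini-Hochberg adjusted p = 0.476). For miR-142-3p it was -0.23 ± 0.25 (limma adjusted p = 0.738) and for miR-223 -0.23 ± 0.16 (limma adjusted p = 0.587). The ZT14 minus ZT2 difference was -0.66 ± 0.25 for miR-142-3p (limma adjusted p = 0.494), -0.43 ± 0.19 for miR-146a (limma adjusted p = 0.525) and -0.31 ± 0.16 for miR-223 (limma adjusted p = 0.525). The fit has 1 residual degree of freedom for each miRNA, and a difference present on 1 array only adds to its residual.

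By profile over the 4 arrays, each centred on its own mean, the miRNAs most like miR-142-3p among the other 122 were miR-146a, miR-342-3p and miR-200a, at root mean square differences of 0.15, 0.16 and 0.17 on the log2 scale, where the median over the 122 was 0.39. For miR-146a they were miR-342-3p, miR-331-3p and miR-223 at 0.08, 0.10 and 0.10, with a median of 0.31. For miR-223 they were miR-331-3p, miR-31 and miR-342-3p at 0.08, 0.09 and 0.09, with a median of 0.23. miR-342-3p, known from lymphocytes and monocytes and nearest or near to all 3, had scaled signals of 0.127 in WT at ZT2, 0.0803 in the mutant at ZT2, 0.0770 in WT at ZT14 and 0.0820 in the mutant at ZT14. The neighbours were picked for profiles like those of the members, so its high level on WT at ZT2 adds no support. miR-200a, miR-331-3p and miR-31, picked in the same way, also lay above their own means there, by 0.59, 0.41 and 0.21. These are descriptions over 4 arrays.

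Other miRNAs known from immune cells were followed as a list of 15, of which 7 were detected on at least 1 array and 5 on all 4. The list holds relatives of the members, the miR-181 family and miRNAs of macrophages, and some of its miRNAs, such as miR-21 and let-7e, are made in many cell types including hepatocytes. At ZT2 all 6 measured on both arrays were below 0, where 60.0% of the 160 miRNAs were, with a median of -0.42 against -0.07 over the 160, though each turned above 0 in 1 or 2 of the 9 alternatives, the authors' table for 5 of them. miR-342-3p was at -0.66 (spot SD 0.18), miR-125a-5p at -0.45 (spot SD 0.28), miR-212 at -0.38 (spot SD 0.11), miR-21 at -0.28 (spot SD 0.11) and let-7e at -0.26 (spot SD 0.16). The sixth, miR-99b, was at -0.45 with a spot SD of 0.64, larger than the ratio. At ZT14, of 5 measured, 3 were below 0 and 2 above, between -0.34 and 0.09, where 56.1% of the 123 miRNAs were below 0. Each of these signs turned in some alternative, in 6 of 9 for miR-21 at -0.00, 5 for miR-125a-5p, 4 for miR-212 and 1 each for let-7e and miR-342-3p. limma called 0 of the 5 for genotype and 0 for time point, as it did for 0% of the 123. miR-181a had a detection call in WT at ZT2 only, and miR-511, miR-147, miR-132, miR-146b, miR-342-5p, miR-181b, miR-181c and miR-181d on none.

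The WT array at ZT2 also stood apart in miRNAs of other cell types. All 3 muscle miRNAs, miR-1, miR-133a and miR-133b, were detected there, with a summed scaled signal of 0.308, and 0 of 3 on each of the other arrays. Of 5 miRNAs of bile duct epithelium 4 were detected on it, 2 on the mutant at ZT2 and on WT at ZT14, and 3 on the mutant at ZT14, with summed scaled signals of 0.226, 0.0976, 0.0811 and 0.154. The highest sum of the muscle list stayed on WT at ZT2 in 9 of 9 alternatives, that of the bile duct list in 6 of 9 and that of the 6 leukocyte and Kupffer-cell miRNAs in 8 of 9. miR-200c was at no detected level on any array. The 6 leukocyte and Kupffer-cell miRNAs summed to 1.40, 0.883, 0.736 and 0.775 over those detected on these arrays in the same order, with miR-150 and miR-155 at no detected level. WT at ZT2 had 193 detected mouse miRNAs in all, against 138 to 161 on the others. The part of these differences in the ratios of the immune-cell miRNAs was not tested.

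Hepatocyte, endothelial and red blood cell sums were highest on the mutant array at ZT2 with this scaling, a place that 5, 5 and 8 of the 9 alternatives kept. The 3 hepatocyte miRNAs, miR-122, miR-192 and miR-194, summed at ZT2 to 107 on the WT array and 122 on the mutant array, and at ZT14 to 96.0 and 108, with mutant over WT ratios of 0.10 to 0.19 at ZT2 that turned below 0 with the summed signal of the scanner. The endothelial pair miR-126-3p and miR-126-5p had ratios of 0.13 and 0.02 at ZT2, with the opposite sign in 2 and 3 of the 9 alternatives. miR-451 and miR-144, made in red blood cells, were at 0.84 and 0.37 at ZT2, and stayed above 0 in 9 of 9 alternatives. Among mesenchymal miRNAs, miR-143 was at -0.59 at ZT2 (spot SD 0.11), above 0 in the authors' table, and miR-199a-3p and miR-199a-5p were at 0.06 and 0.09, with the opposite sign in 3 and 2 of the 9. The fourth one measured, miR-214, was at -0.15 with a spot SD of 0.42, larger than the ratio, and turned above 0 in 4 of the 9.

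**Figure D4:**
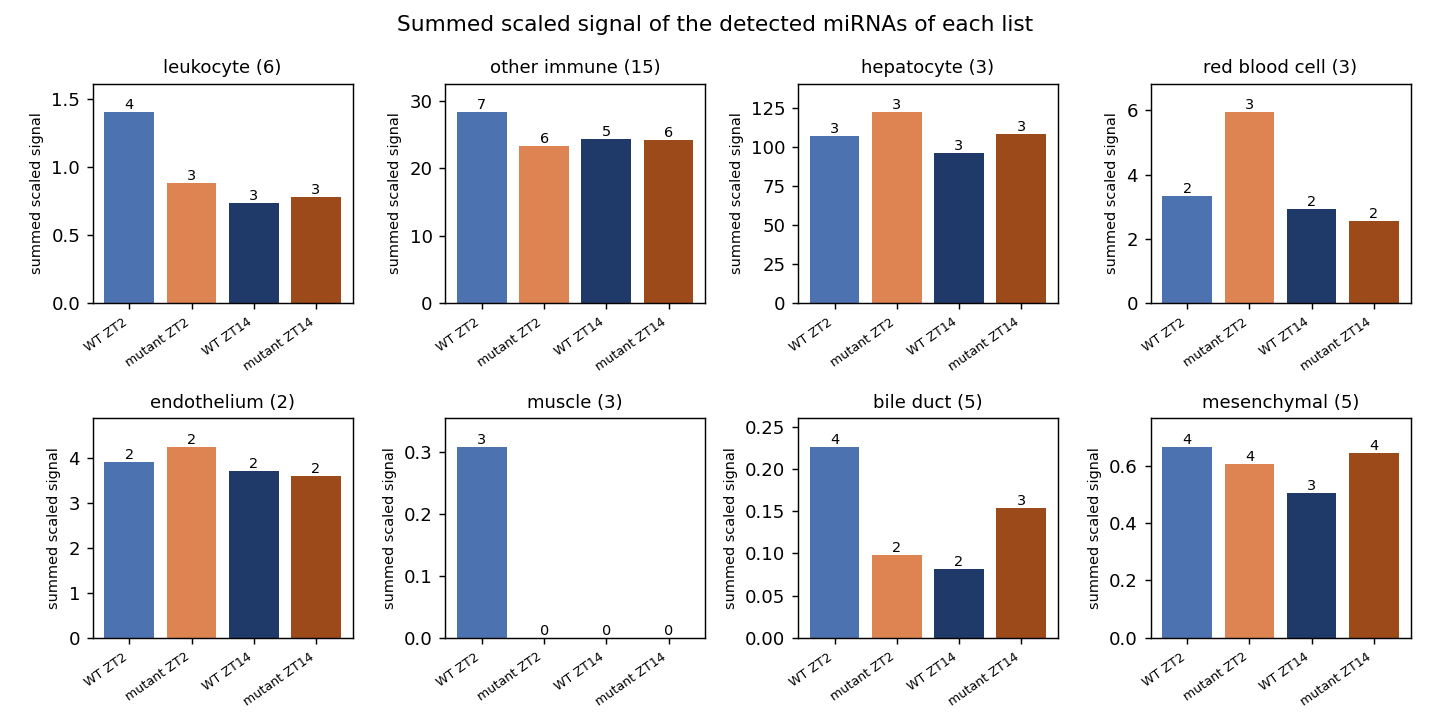
Summed scaled signal (vertical axis, from 0, own range in each panel) of the detected miRNAs of each list on the 4 arrays, with the number detected above each bar and the size of the list in its title. With this scaling the leukocyte, other immune, muscle, bile duct and mesenchymal sums are highest on WT at ZT2 and the red blood cell sum on the mutant at ZT2. The other immune sum kept that place in 6 of 9 alternatives and the mesenchymal sum in 3 of 9, and the exceptions for the other lists are given above. On WT at ZT2 miR-21, made in many cell types, supplied 27.4 of the other immune sum of 28.3, so that panel mainly shows miR-21. The hepatocyte sums lie between 96.0 and 122.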

How the data were processed

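Liver RNA from WT mice and from Clock mutants at ZT2 and ZT14, a pool of 3 mice per array, was hybridized to 4 Agilent arrays. The authors deposited the scanner output of Feature Extraction 10.7.1.1, in which the processed intensity of each spot is linear and background-subtracted and arrays are not scaled to each other. A second deposited table gives 1 log2 value per miRNA and array. Against the summed signal of the scanner, its members are shifted by -4.18 and -3.27 on the arrays of WT and mutant at ZT2 and by 3.32 on both arrays at ZT14, so it served as an alternative only, and both its time comparisons and its genotype ratio at ZT2 carry these shifts. Neither the Agi4x44PreProcess package named in the methods nor a normalization is described further in the sources used here.

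Spots flagged as outliers were left out, 3.23% to 3.51% per array. The mean over the spots of each probe was averaged over probes, divided by the array's 75th percentile over the 123 mouse miRNAs that every array detected, and log2-transformed. The detected signal reached down to between 1.99 and 3.02 units. Ratios of 2 arrays have no test. Genotype and time point were fitted with limma 3.58.1 in R 4.3.3 and Benjamini-Hochberg adjustment over the 123 miRNAs, and the fit was tested on simulated data. Other steps used Python 3.11.15, numpy 2.4.6, pandas 2.3.3 and matplotlib 3.10.9.

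Named are the 6 miRNAs, their star strands, a list of 15 immune miRNAs, markers of other cell types and the 3 nearest profiles of each member detected on all arrays. The members and lists were chosen with earlier results of these data known. Alternatives covered scaling (none, 75th percentile of all mouse miRNAs, median, spike-ins, quantile with a floor of 1), normexp with an offset of 50, summed signals, the authors' table, outlier spots, detection calls, floors, a 1.5-fold threshold and other limma fits. Leaving out arrays in the time point fit was chosen after seeing the data. RefSeq positions are of GRCm38.p6, a build the array files do not name. Target predictions and qRT-PCR are not analysed here.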

Additional observations from a re-analysis of the deposited data

Results flagged for a closer look

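miR-142-3p was marked for a closer look because its mutant over WT ratio had opposite signs at the 2 time points, each larger than its spot SD: -0.66 at ZT2 and 0.19 at ZT14, a difference of 0.84 on the log2 scale. The difference was not tested, since each condition had 1 array. Of the 123 miRNAs detected on all 4 arrays, 45 (36.6%) had ratios of opposite sign at the 2 time points, whatever their size. The sign at ZT2 turned in the authors' log2 table, to 0.15, and the sign at ZT14 did not turn in any of the 9 alternatives, between 0.05 and 1.02.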

How the results depend on the processing

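The count of members at least 2-fold different at ZT2, which was 1, became 0 with a 75th percentile taken over all mouse miRNAs, quantile normalization, normexp and detection from spots well above background, and 3 with the 1.5-fold threshold, which added miR-142-3p and miR-146a. It was 1 in the other alternatives. At ZT14 the count of 0 became 1 with spike-in scaling, for miR-142-3p at 1.02. The median of the 123 miRNAs was itself at 0.81 with that scaling, and miR-142-3p lay 0.22 above it. The shares of all miRNAs that passed under these alternatives were not counted, so the changes in the member counts have no background beside them. limma called 0 members for genotype in every alternative, where over the 123 miRNAs it called 79 in the authors' log2 table (smallest adjusted p of a member 0.0580), 6 with normexp, 7 without the mutant array at ZT2 and 0 otherwise. For time point it called 0 members in every alternative but the authors' table, which gave 3 along with all 123 miRNAs. Over the 123 it called 5 with no scaling, 3 with spike-in scaling, 3 with normexp, 13 without WT at ZT14, 1 without the mutant at ZT14 and 0 otherwise. In that table the ratio of miR-142-3p in WT turned from -1.09 to 5.81. With an array left out the additive fit has no residual degree of freedom, so limma was fitted with genotype alone or time point alone, the latter chosen after seeing the data, and gave 0 to 0 members for each. In these fits 1 arm is a single array, assumed to vary like the others, and the term left out adds to the difference, so the counts say little about stability. The 13 detections were 13 under both other rules. Of 108 recomputed single ratios, 41 moved by less than their spot SD, 66 by more, 27 of these with the opposite sign, and 1 is the reversal above. No paired analysis was possible because no label ties arrays of different conditions beyond the time point, which is already a term of the genotype fit. Signals of miR-150 and miR-155 were too near the negative controls to give a ratio, and miR-142-5p, not detected on 3 arrays, gave nominal bounds at most.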
